A study of Mus musculus with 11 samples.

Results

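The comparison described here sets muscle stem cells that had been taken out of the muscle (T3) against cells whose RNA was fixed while they were still in it (T0). It used 7 of the 11 libraries of the series, 3 of T0 and 4 of T3, and asked of all genes which functions differ, apart from the early-response, stress and quiescence genes that are well known from such preparations. Of 48709 genes in the count table, 31999 had enough reads to be tested. Gene functions were read through 29 lists, and the genes named below were taken from them and from the ends of the whole ranking by a set rule.

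Muscle stem cells, also called satellite cells, lie between a muscle fibre and its basal lamina. In resting muscle they are quiescent: small cells out of the cell cycle, with a primary cilium on their surface and little biosynthesis. Enzymatic dissociation and sorting break their contacts with fibre and matrix, and quiescent cells are known to leave that state after injury or removal from the tissue. Fixation in the tissue stops RNA synthesis and decay before the tissue is taken apart.

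All mice were C57BL/6 animals with the transgene Tg:Pax7-nGFP, in which Pax7 regulatory sequence drives a nuclear green fluorescent protein, so cells are sorted by Pax7 expression or by protein that outlasts it. The muscles came from the chest, the forelimb and the hindlimb in both groups. T0 muscles were fixed whole in 0.5% paraformaldehyde for 60 min at 4 °C, and T3 cells were fixed in 0.5% paraformaldehyde for 30 min after sorting. Isolation and the manner of fixation change together between the groups and cannot be told apart. The labels give neither age nor sex, nor whether libraries came from separate animals, so p-values measure the spread between these libraries, which may in part be technical.

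Depth was similar, with 49078859 to 67251946 counts in a T0 library and 52632553 to 72638711 in a T3 library. Levels are given in CPM, the share of a library's counts scaled to a common library size (TMM), so levels compare libraries and not genes of different length. A gene is called higher or lower where edgeR's quasi-likelihood test gave an adjusted p (Benjamini-Hochberg, over all genes tested) under 0.05, and errors of log2 changes are standard errors (SE). The 12 satellite cell markers summed to 5338 to 7841 CPM in T0 and 3239 to 3887 CPM in T3, with 4 of them higher and 4 lower, Pax7 itself among the latter. Markers of other cells were present at lower levels in both groups: the myofibre list (11 of 16 higher, 1 lower) summed to 136 to 157 CPM in T0 and 182 to 264 CPM in T3, the endothelial list (8 of 14 higher) to 298 to 365 CPM in T0 and 535 to 634 CPM in T3 and the fibroblast list (4 of 13 higher, 3 lower) to 881 to 1289.7 CPM in T0 and 482 to 819 CPM in T3. The macrophage list (5 of 13 higher) summed to 102 to 113 CPM in T0 and 266 to 334 CPM in T3, most of it from Cx3cr1, which lies over another gene, and the pericyte list (1 of 10 higher, 4 lower) to 677 to 1103 CPM in T0 and 270.3 to 520.0 CPM in T3, most of it from Notch3. No marker tested was at 0 in a group, and the part of other cells in the results was not tested. In such bulk libraries, fewer cells of a type and less RNA per cell cannot be told apart. T0 replicate 3 stood apart from the other T0 libraries in many genes, and the counts of each function list are given with and without it.

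Isolation went with change in many genes: 4807 genes (15.0%) were higher in T3 and 7332 (22.9%) were lower. Without T0 replicate 3 the counts were 7080 and 8875. In 12242 of the 31999 genes tested, called or not, the libraries of T0 and T3 did not overlap. Most genes named below were chosen for a small p or a large change. That choice makes non-overlap likely, so it is no further support for them. Changes of at least 2-fold made up 3030 of the higher genes (9.47% of genes tested) and 5172 of the lower ones (16.2%). Among 14075 protein-coding genes whose log2 CPM averaged 1 or more, called expressed below, 21.5% were higher and 33.2% were lower, and these shares are the background for the function lists. The direction went with the level of the gene. Of 4841 protein-coding genes with a mean log2 CPM of 3 to 5, 16.3% were higher and 40.4% lower, whereas of 1332 genes at 7 or more, 44.2% were higher and 19.7% lower. Gene length moved with it less: among expressed genes without an overlapping gene, the second of 5 equal classes by length (13301 to 26923 bp) had 25.6% higher and 40.3% lower, and the longest class 15.0% higher and 28.4% lower. The share of calls that were lower, 60.4%, was 44.7% with upper-quartile scaling, which moved the median log2 change of all genes from 0.05 to 0.32, so a list near the background has no firm direction.

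**Figure D1:**
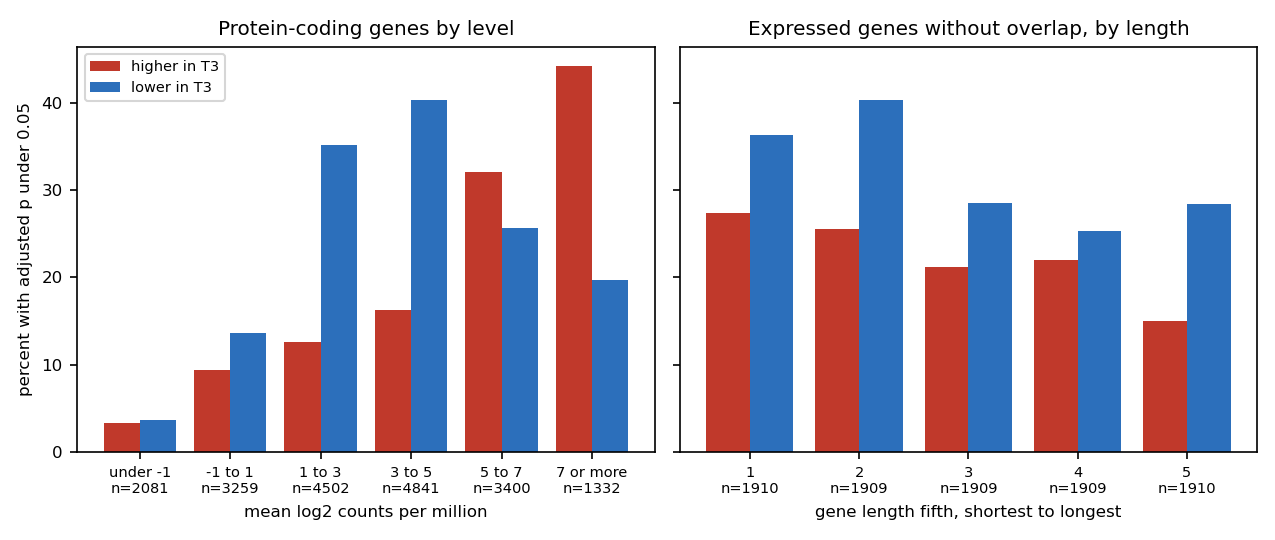
Percent of protein-coding genes called higher (red) or lower (blue) in T3 than in T0 (adjusted p under 0.05), by mean level on the left and by 5 equal classes of gene length on the right, with the number of genes under each pair of bars. Lower calls lead in the bands from 1 to 5 (40.4% against 16.3% at 3 to 5), and higher calls lead from 5 upward (44.2% against 19.7% at 7 or more).

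The genes with the largest rises outside the known lists coded for matrix proteins, growth and neuropeptide signals and a cell surface receptor. Gdnf, a neurotrophic ligand of the Ret receptor, went from 9.61 to 12.9 CPM in T0 to 188 to 305 CPM in T3 (log2 change 4.50 ± 0.26 SE, adjusted p = 3.07e-11). Gal, the precursor of the neuropeptide galanin, went from 3.47 to 11.9 CPM in T0 to 130.1 to 215 CPM in T3 (log2 change 4.49 ± 0.34 SE). Cd44, the hyaluronan receptor, was the most even of these across libraries, at 40.4, 46.9 and 52.4 CPM in T0 and at 954, 1042, 1084 and 1073 CPM in T3 (log2 change 4.48 ± 0.25 SE, adjusted p = 1.96e-11). Among matrix genes rose Thbs1, which codes for thrombospondin 1 (6.25 to 9.61 CPM in T0 to 107 to 245 CPM in T3; log2 change 4.30 ± 0.30 SE), and Lox, the collagen cross-linking oxidase (1.96 to 2.32 CPM in T0 to 19.4 to 41.1 CPM in T3; log2 change 3.93 ± 0.27 SE). The others were Sgms2, a sphingomyelin synthase (16.6 to 21.9 CPM in T0 to 389 to 753 CPM in T3; log2 change 4.72 ± 0.29 SE), Noct, a circadian phosphatase (4.48 to 6.15 CPM in T0 to 119 to 153 CPM in T3; log2 change 4.63 ± 0.24 SE), the tubulin gene Tuba1c, and the transcription factor gene Glis3. Glis3 stood at 518, 496 and 191 CPM in T0 and at 5946, 6188, 4729 and 7640.3 CPM in T3 (log2 change 3.93 ± 0.34 SE, adjusted p = 5.95e-09), with T0 replicate 3 well below the other T0 libraries.

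The 10 largest falls were taken by the same rule. It admits only genes whose libraries do not overlap and whose log2 CPM averages 4 or more. Pde7b, a phosphodiesterase that breaks down cyclic AMP, stood at 2361, 2515 and 1092 CPM in T0 and at 211, 313, 194 and 262 CPM in T3 (log2 change -3.02 ± 0.27 SE, adjusted p = 1.05e-08). Prkcq, the theta isoform of protein kinase C, was nearly the same in all T3 libraries, at 606, 497 and 517 CPM in T0 and at 64.6, 66.0, 67.9 and 64.2 CPM in T3 (log2 change -3.04 ± 0.20 SE, adjusted p = 1.77e-10). Dtx4, an E3 ligase gene of the Deltex family known from Notch signalling, fell from 668 to 1039 CPM in T0 to 76.5 to 125 CPM in T3 (log2 change -3.16 ± 0.24 SE). Abr, a regulator of Rac and Cdc42, went from 168 to 406 CPM in T0 to 36.0 to 42.3 CPM in T3 (log2 change -3.05 ± 0.25 SE). Bcl7a, a subunit of BAF chromatin remodelling complexes, fell from 78.9 to 137 CPM in T0 to 9.60 to 13.0 CPM in T3 (log2 change -3.29 ± 0.22 SE). Glrb, the beta subunit of the glycine receptor, fell from 69.4 to 113 CPM in T0 to 8.07 to 14.2 CPM in T3 (log2 change -3.05 ± 0.23 SE). The remaining 4 were Vstm4 (log2 change -3.42 ± 0.23 SE), an immunoglobulin domain gene, Mblac2 (log2 change -3.34 ± 0.22 SE), a metallo-beta-lactamase fold gene, Capn6 (log2 change -3.20 ± 0.26 SE), a calpain without protease activity, and Mill2 (log2 change -3.15 ± 0.21 SE), a class I-like gene. In Pde7b and Abr, T0 replicate 3 lay well below the other T0 libraries, at 1092 and 168 CPM.

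**Figure D2:**
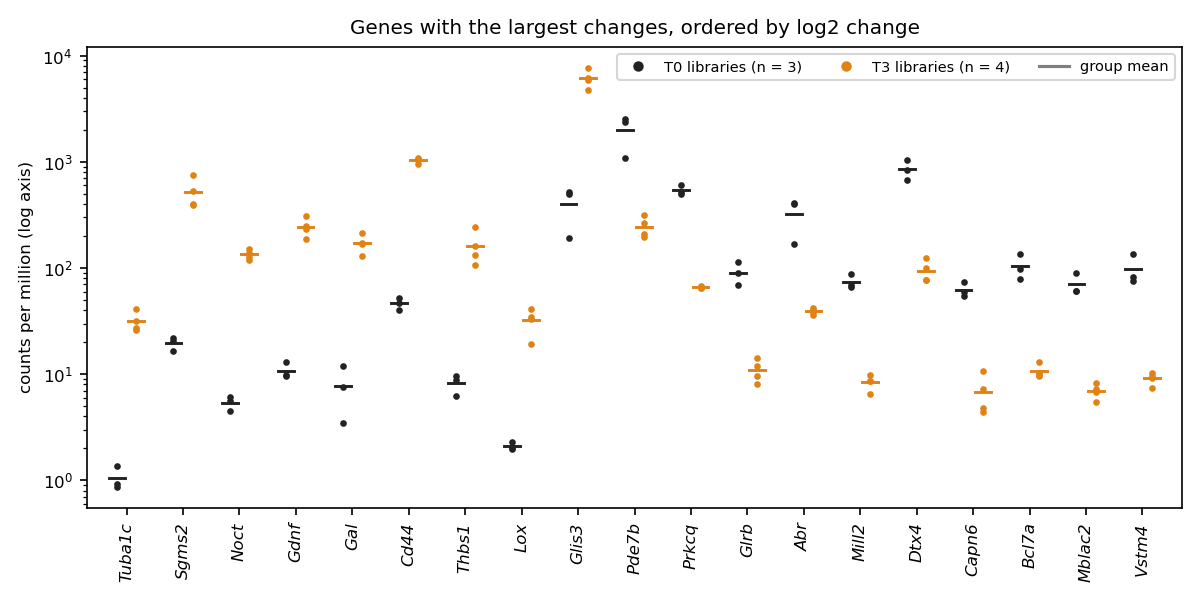
Level of 9 of the 10 genes with the largest rise and of the 10 with the largest fall in each library (CPM, log axis), T0 in black (n = 3) and T3 in orange (n = 4), with short lines for the group means. The genes were chosen among those whose T0 and T3 libraries do not overlap, and Prkcq and Cd44 show the tightest T3 values.

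Among the 29 lists, a few stood well away from the background of expressed genes (21.5% higher, 33.2% lower). Primary cilium and hedgehog genes were almost all lower, and DNA repair genes mostly lower. Of 41 expressed nuclear receptor genes only 7.32% were higher, but the 39.0% that were lower lay near the background. Their direction was not firm, with 13 of 42 lower and 11 higher under upper-quartile scaling. Nuclear pore and transport genes, actin cytoskeleton genes and genes of the translocon and vesicle coats were called higher more often than lower. Their median log2 CPM lay from 5.53 to 5.96, and at 5 to 7 the shares of protein-coding genes were 32.1% higher and 25.6% lower. Beside these, 51.9%, 41.7% and 33.9% of the lists were higher, the last near its level, and 13.0%, 5.56% and 10.2% lower. The cilium and repair lists had medians of 4.20 and 4.33, in the band with 16.3% higher and 40.4% lower. Most of the other lists held rises and falls in numbers near the background, often between close relatives.

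**Figure D3:**
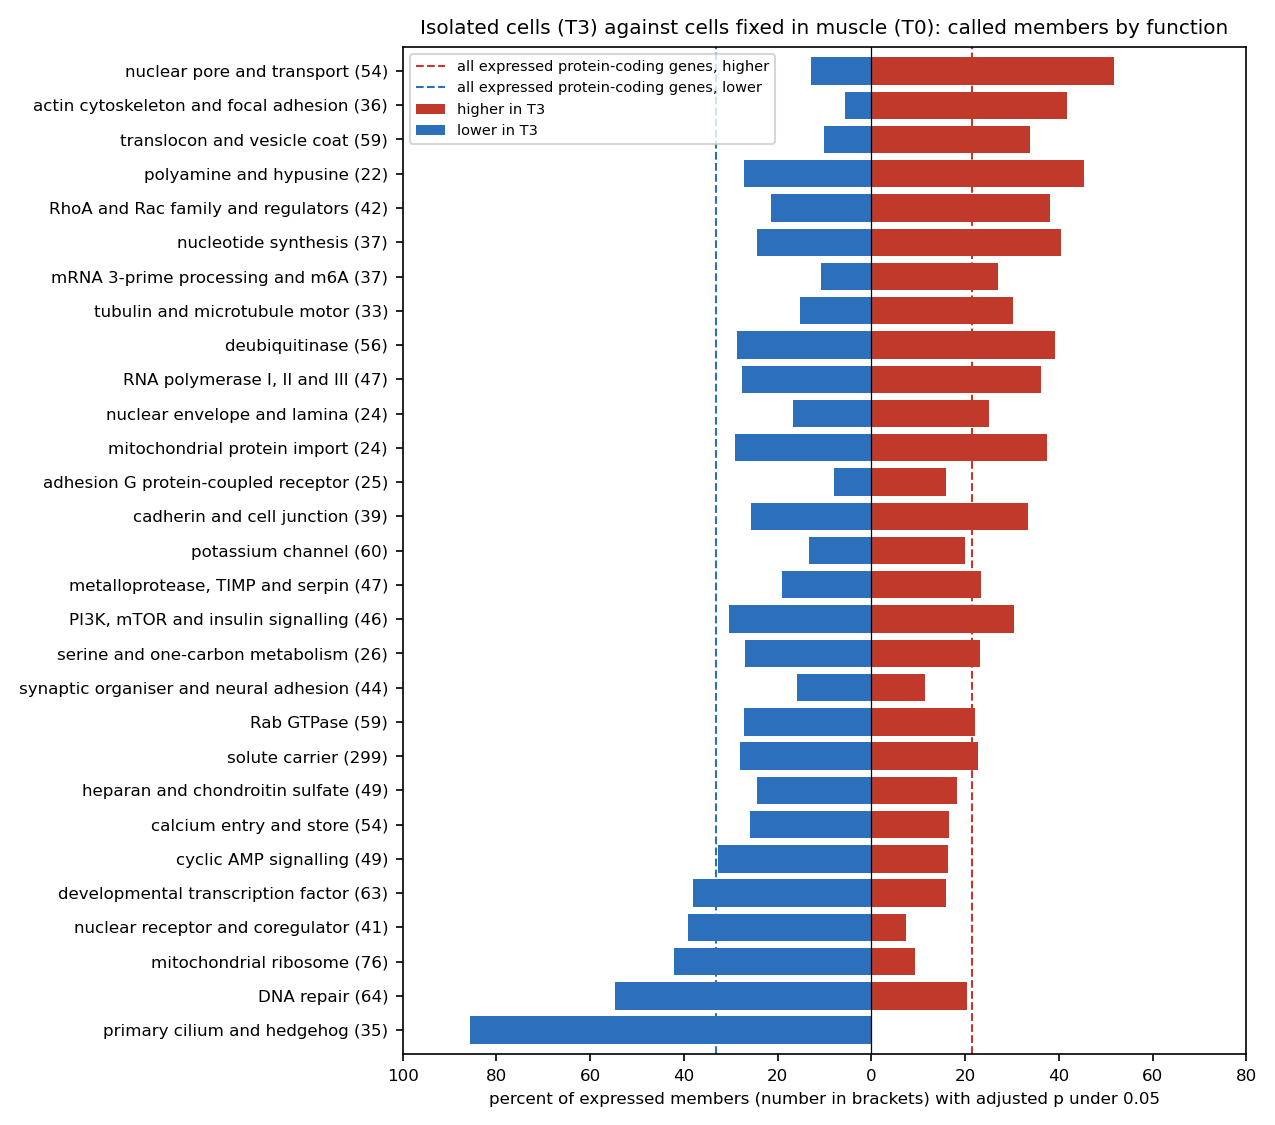
Percent of the expressed members of each function list called higher (red, right) or lower (blue, left) in T3 than in T0, with dashed lines at the share of all expressed protein-coding genes (21.5% higher, 33.2% lower). Nuclear pore and transport genes lie at the top with 28 of 54 higher, and primary cilium and hedgehog genes at the bottom with 30 of 35 lower and 0 higher.

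The primary cilium is an antenna of the cell surface, built by intraflagellar transport (IFT) trains and sorted by the BBSome, and it is where vertebrate cells receive hedgehog signals. Of 35 genes of this list tested, 30 were lower in T3, 0 were higher and 5 were not called, with a median log2 change of -1.37 against 0.05 over all genes tested. The libraries did not overlap in any of the 30, beside 12242 of all 31999 genes tested. Among the 26 members without an overlapping gene, 22 were lower and 0 higher. Upper-quartile scaling left 28 lower and 1 higher, and the count without T0 replicate 3 was 31 lower and 0 higher.

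Of 14 IFT genes 13 fell, with log2 changes from -2.20 to -0.46 over the 14. Ift81, which carries tubulin in the IFT-B complex, stood at 51.1, 43.9 and 36.9 CPM in T0 and at 9.90, 8.74, 9.88 and 9.74 CPM in T3 (log2 change -2.20 ± 0.19 SE, adjusted p = 8.32e-09). Ift88, a core IFT-B subunit long known from cilium loss in mice, stood at 39.2, 37.5 and 26.8 CPM in T0 and at 11.4, 9.19, 10.8 and 10.2 CPM in T3 (log2 change -1.73 ± 0.20 SE, adjusted p = 2.69e-07). Every T3 library of both genes lay more than 2-fold below the lowest T0 library. Ift20, which also works at the Golgi, was not called (log2 change -0.46 ± 0.21 SE, adjusted p = 0.0894). Both kinesin genes of the anterograde motor fell, Kif3a (log2 change -1.37 ± 0.20 SE) more than Kif3b (log2 change -0.52 ± 0.19 SE). All 6 BBSome genes fell, led by Bbs7 at 21.0, 19.6 and 14.4 CPM in T0 and at 4.40, 3.73, 4.33 and 4.83 CPM in T3 (log2 change -2.08 ± 0.21 SE, adjusted p = 4.22e-08), and so did the 3 transition zone genes Cep290 (log2 change -1.62 ± 0.19 SE), Rpgrip1l (log2 change -1.73 ± 0.21 SE) and Tmem67 (log2 change -0.85 ± 0.21 SE), each of which lies over another gene. Arl13b, a small GTPase of the ciliary membrane, was not called (log2 change 0.45 ± 0.21 SE, adjusted p = 0.106), and it lies over another gene.

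On the side of the hedgehog signal, Gli2, the main activator among the Gli transcription factors (chr1:118834132-119053619), had the largest fall after Gas1. It stood at 794, 586 and 488 CPM in T0 and at 81.1, 74.2, 90.8 and 102 CPM in T3 (log2 change -2.84 ± 0.22 SE, adjusted p = 1.84e-09), and the groups were far apart. Gas1, a surface co-receptor for hedgehog ligands, stood at 254, 218 and 55.5 CPM in T0 and at 12.4, 27.0, 19.0 and 22.3 CPM in T3; T0 replicate 3 was well below the other T0 libraries but above every T3 library (log2 change -3.12 ± 0.35 SE, adjusted p = 1.91e-07). The receptor Ptch1 (log2 change -1.11 ± 0.22 SE) and the signal transducer Smo (log2 change -0.83 ± 0.19 SE) fell less, at 53.4 to 108 CPM in T0 to 35.6 to 44.0 CPM in T3 and 59.5 to 82.2 CPM in T0 to 37.0 to 46.0 CPM in T3. Hhip, a decoy receptor, fell by 1.17 on the log2 scale and Gli1 by 0.73, where Gli1 lies over another gene. Gli3, the main repressor of the family, was not called, at 66.0, 58.1 and 48.9 CPM in T0 and at 67.9, 55.9, 48.5 and 68.6 CPM in T3 (log2 change 0.06 ± 0.20 SE, adjusted p = 0.844), nor was Sufu (log2 change -0.10 ± 0.21 SE). Cdon, a co-receptor of the same surface complex as Gas1 that was listed among the cadherin and junction genes, stood at 866, 565 and 593 CPM in T0 and at 129.6, 86.0, 114 and 114 CPM in T3 (log2 change -2.60 ± 0.22 SE, adjusted p = 6.01e-09), and its relative Neo1 fell less (log2 change -0.96 ± 0.22 SE).

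**Figure D4:**
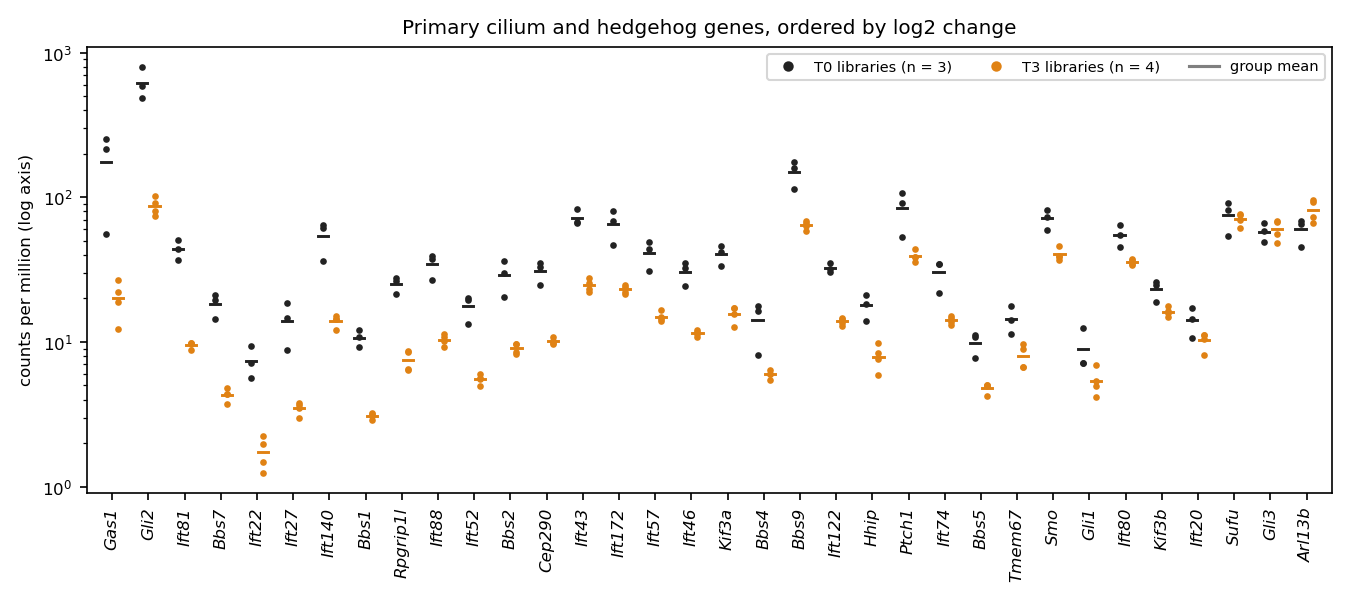
Level of 34 of the 35 primary cilium and hedgehog genes in each library (CPM, log axis), ordered from the largest fall to the rise of Arl13b, with T0 in black (n = 3), T3 in orange (n = 4) and short lines for the group means. T3 libraries lie below all T0 libraries in 30 genes, and the groups overlap in Ift20, Sufu, Gli3 and Arl13b at the right.

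Promoters were compared because the cilium genes moved together. RefSeq promoters (GRCm38.p6, 250 bases before to 50 after the start) were found for 29 of the 35 genes, and 15 of them (51.7%) held a CCAAT box (the letters CCAAT on either strand), against 38.3% of 17613 promoters of genes tested and 37.4% of 7507 expressed genes without overlap. Of these 15 genes, 13 fell and 2 were not called, beside 30 of 35 lower in the whole list, so the box did not set the falling genes apart. Over all function lists the share with the box ran from 25.0% (synaptic organisers) to 69.6% (serine and one-carbon genes, with 6 higher and 8 lower). It was 45.5% for nuclear pore and transport genes, which were more often higher. CCAAT boxes stood in 41.3% of promoters of expressed genes lower by at least 2-fold (n = 1606) and in 34.5% of those higher by at least 2-fold (n = 954). The stretches around the box nearest to the start are shown for 2 IFT genes that fell, with the CCAAT box in capitals (read on the opposite strand where it appears as ATTGG).
Ift88: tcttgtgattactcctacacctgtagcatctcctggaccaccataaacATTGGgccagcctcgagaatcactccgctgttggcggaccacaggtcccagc
Ift22: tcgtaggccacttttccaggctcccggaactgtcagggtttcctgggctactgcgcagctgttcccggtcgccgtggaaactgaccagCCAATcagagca
The first lies at chr14:57423908-57424007 (+ strand) and the second at chr5:136908050-136908149 (+ strand). Such a match describes the letters and not a site in use.

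Nuclear pores are built of nucleoporins, and importins and exportins carry proteins through them along a gradient of the GTPase Ran. Of the 54 genes tested, all of them expressed, 28 were higher in T3 (51.9%), 7 were lower (13.0%) and 19 were not called, with a median log2 change of 0.63. Without T0 replicate 3 the counts were 29 higher and 14 lower. The rises were spread over the machinery: 11 of 26 nucleoporin genes rose and 4 fell, 8 of 16 importins and adaptors rose and 2 fell, 5 of 7 exportins rose and 1 fell, and 4 of 5 Ran cycle genes rose.

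Kpna2, an importin alpha that binds nuclear localisation signals, rose most and stood at 1.60, 2.25 and 2.46 CPM in T0 and at 14.1, 20.0, 17.9 and 19.9 CPM in T3 (log2 change 3.09 ± 0.24 SE, adjusted p = 1.53e-09). Ran itself stood at 11.9, 11.6 and 5.98 CPM in T0 and at 41.3, 47.2, 35.0 and 49.8 CPM in T3 (log2 change 2.14 ± 0.25 SE, adjusted p = 2.80e-07), and its activator of GTP hydrolysis Rangap1, which lies over another gene, rose by 2.46 on the log2 scale. Of the nucleoporins, Nup153 of the nuclear basket stood at 79.7, 76.3 and 46.5 CPM in T0 and at 271, 283, 228 and 311 CPM in T3 (log2 change 2.02 ± 0.23 SE, adjusted p = 2.89e-07). In all of these, each T3 library was above each T0 library. Ipo5, an importin for ribosomal proteins and histones, stood at 89.1, 81.9 and 46.5 CPM in T0 and at 328, 344, 269 and 368 CPM in T3 (log2 change 2.18 ± 0.24 SE, adjusted p = 2.04e-07). Against the trend, Nup37 (9.09 to 12.2 CPM in T0 to 2.84 to 3.00 CPM in T3; log2 change -1.91 ± 0.20 SE) and Nup210, a membrane nucleoporin known from muscle differentiation (94.5 to 132 CPM in T0 to 28.6 to 40.7 CPM in T3; log2 change -1.74 ± 0.20 SE), fell. Xpo1, the general exportin for proteins with a leucine-rich export signal, fell too, at 100.2, 80.6 and 45.2 CPM in T0 and at 24.3, 30.9, 32.6 and 36.2 CPM in T3 (log2 change -1.28 ± 0.23 SE, adjusted p = 9.62e-05).

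Promoters of 44 of the 54 genes were found, and 9 (20.5%) held an E-box of the letters CACGTG, the sequence bound by MYC and related factors, against 8.32% of all 17613 promoters and 10.2% of expressed genes without overlap. Of the 9 genes, 6 rose, 0 fell and 3 were not called. E-boxes stood in 12.8% of promoters of expressed genes higher by at least 2-fold and in 10.6% of those lower by at least 2-fold. DNA repair genes, which mostly fell, had an E-box in 9 of 52 promoters (17.3%), and primary cilium and hedgehog genes, which fell too, in 1 of 29 (3.45%). Over all function lists the share ran from 0.0% (adhesion receptors, with 4 higher and 2 lower) to 23.5% (polyamine genes, with 10 higher and 7 lower). Whether the share goes with the direction was not tested. The stretches of 4 genes that rose are given with the E-box in capitals, to show how different the flanking bases are.
Ran: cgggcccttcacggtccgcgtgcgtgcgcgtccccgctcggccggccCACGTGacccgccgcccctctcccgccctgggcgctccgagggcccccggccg
Ranbp2: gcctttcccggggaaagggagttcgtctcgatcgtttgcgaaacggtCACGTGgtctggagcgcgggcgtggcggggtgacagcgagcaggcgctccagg
Nup54: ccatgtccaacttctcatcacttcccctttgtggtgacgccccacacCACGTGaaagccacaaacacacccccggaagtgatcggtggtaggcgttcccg
Nup93: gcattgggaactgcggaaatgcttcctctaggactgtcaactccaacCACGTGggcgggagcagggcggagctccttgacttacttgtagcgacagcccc
These lie at chr5:129019991-129020090 (+ strand), chr10:58446718-58446817 (+ strand), chr5:92435247-92435346 (- strand) and chr8:94214342-94214441 (+ strand). Ranbp2, the large nucleoporin of the cytoplasmic filaments, rose by 1.29 on the log2 scale, Nup54 of the central channel by 1.23 and the scaffold gene Nup93 by 1.04.

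DNA repair genes went the other way. Of 66 tested, 35 were lower (53.0%), 14 were higher (21.2%) and 17 were not called, with a median log2 change of -0.68. Falls outnumbered rises with upper-quartile scaling as well (30 against 19), and without T0 replicate 3 there were 43 falls and 12 rises. Mismatch repair held the largest fall: Mlh3 stood at 22.1, 21.4 and 17.2 CPM in T0 and at 4.20, 2.84, 3.70 and 2.81 CPM in T3 (log2 change -2.58 ± 0.21 SE, adjusted p = 3.84e-09). Msh6, of the same pathway and lying over another gene, rose (log2 change 0.91 ± 0.22 SE). In end joining 3 of 5 genes fell and 0 rose. Xrcc5, which codes for the Ku80 protein that binds broken ends, stood at 73.4, 71.8 and 48.2 CPM in T0 and at 18.1, 17.6, 17.7 and 16.5 CPM in T3 (log2 change -1.88 ± 0.20 SE, adjusted p = 8.64e-08), and T3 libraries differed by less than 2 CPM. Among damage kinases and the MRN complex, 6 of 8 fell and 2 rose. The kinase gene Atm went from 34.4 to 72.2 CPM in T0 to 16.8 to 19.0 CPM in T3 (log2 change -1.69 ± 0.23 SE). Rad50 went from 34.2 to 56.1 CPM in T0 to 12.3 to 15.8 CPM in T3 (log2 change -1.84 ± 0.21 SE). Base excision and single-strand repair had 8 of 12 lower, with Parp1 at 27.9 to 51.5 CPM in T0 to 13.2 to 18.0 CPM in T3 (log2 change -1.44 ± 0.22 SE) and 1 higher, the uracil glycosylase gene Ung (log2 change 1.10 ± 0.28 SE). Nucleotide excision repair was mixed, with 4 of 10 higher and 3 lower. Ercc8, of transcription-coupled repair, rose from 10.6 to 15.0 CPM in T0 to 28.8 to 44.8 CPM in T3 (log2 change 1.51 ± 0.22 SE). Rbbp8, which codes for the end resection factor CtIP, went from 23.8 to 33.997 CPM in T0 to 70.8 to 94.6 CPM in T3 (log2 change 1.49 ± 0.21 SE).

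**Figure D5:**
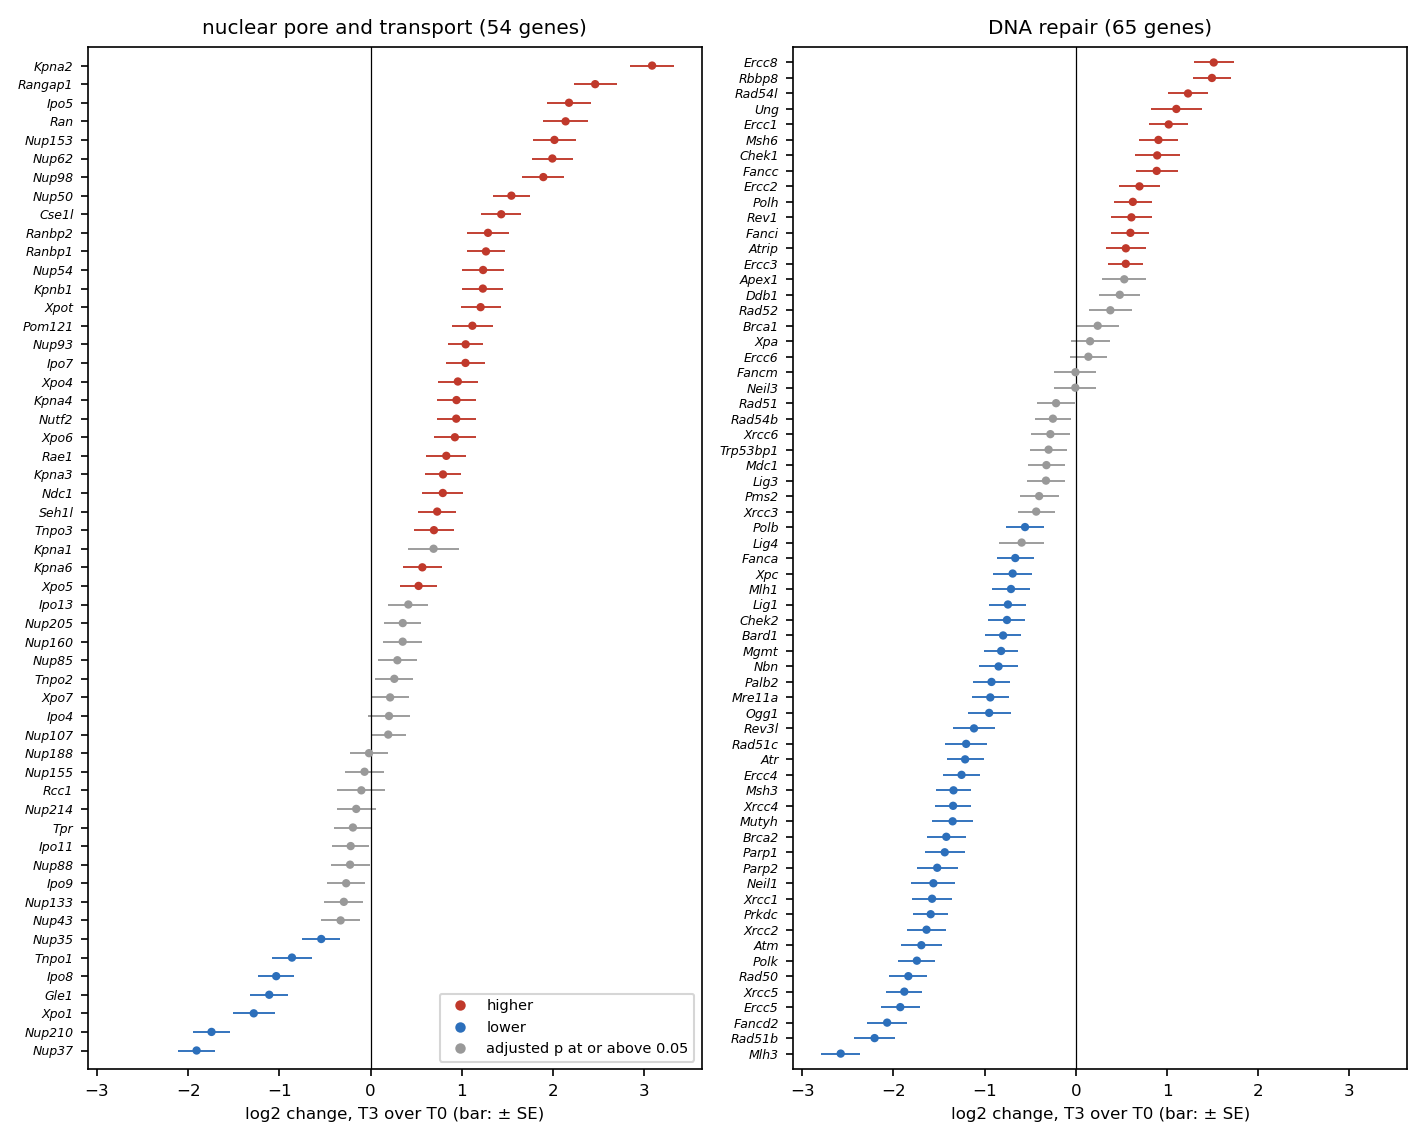
Log2 change of T3 over T0 with its standard error for each nuclear pore and transport gene (left, 54 genes) and 65 of the 66 DNA repair genes (right), coloured by call. On the left 28 genes lie to the right of 0 in red and 7 to the left in blue, and on the right 14 lie in red and 34 in blue.

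Actin and adhesion genes rose more often than they fell. Of 36 tested, 15 were higher (41.7%), 2 were lower and 19 were not called, and with upper-quartile scaling 22 were higher and 1 lower. Without T0 replicate 3 there were 15 and 4. Arpc2, a subunit of the Arp2/3 complex that starts branched filaments, stood at 53.6, 53.8 and 41.0 CPM in T0 and at 132, 164, 131 and 167 CPM in T3 (log2 change 1.59 ± 0.21 SE, adjusted p = 1.74e-06). Tpm3, a tropomyosin, went from 25.0 to 36.7 CPM in T0 to 70.5 to 122 CPM in T3 (log2 change 1.62 ± 0.22 SE). Pdlim7, a scaffold of stress fibres, went from 21.0 to 31.1 CPM in T0 to 52.9 to 78.3 CPM in T3 (log2 change 1.47 ± 0.22 SE). Each T3 library was above each T0 library in these 3 genes, which their choice by small p makes likely. Actb, the beta-actin gene often used as a reference, was not called (log2 change 0.43 ± 0.21 SE, adjusted p = 0.121). Calponin genes were the exception: Cnn3, which lies over another gene, fell by 1.38 on the log2 scale, and Cnn2 fell by 0.73, a call that was lost with upper-quartile scaling (adjusted p = 0.141). Myofibre markers, which share this cytoskeleton in part, summed higher in T3 as given above, and their part in it was not tested.

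Of 32 actin and adhesion genes with a promoter in the table, 7 (21.9%) held a CArG box, the element of serum response factor, against 1.42% of all promoters and 1.25% of those of expressed genes without overlap. Of the 7 genes, 2 rose (Actg1 and Vcl), 1 fell (Cnn2) and 4 were not called (Fhl2, Lima1, Myl9 and Srf). The box alone did not sort the genes by direction, and 2 stretches show this, from a gene that rose, Rnd3, and from Cnn2, with the CArG box in capitals.
Rnd3: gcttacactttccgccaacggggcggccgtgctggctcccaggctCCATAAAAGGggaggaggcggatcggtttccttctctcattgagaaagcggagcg
Cnn2: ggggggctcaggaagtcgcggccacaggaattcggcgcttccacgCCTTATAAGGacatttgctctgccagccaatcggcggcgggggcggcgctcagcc
They lie at chr2:51149157-51149256 (- strand) and chr10:79988499-79988598 (+ strand). Rnd3 codes for a small GTPase that opposes RhoA, and it stood at 39.6, 36.7 and 36.7 CPM in T0 and at 179, 204, 126 and 198 CPM in T3 (log2 change 2.23 ± 0.22 SE, adjusted p = 4.10e-08).

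Other regulators and members of this GTPase family moved in both directions, 16 of 44 higher and 10 lower. Trio, an exchange factor for Rac and RhoA, stood at 443, 408 and 265 CPM in T0 and at 2013, 1883, 1549 and 2194 CPM in T3 (log2 change 2.36 ± 0.25 SE, adjusted p = 8.95e-08), the Rac effector kinase gene Pak1 at 35.7, 32.8 and 37.0 CPM in T0 and at 192, 158, 239 and 201 CPM in T3 (log2 change 2.49 ± 0.22 SE, adjusted p = 8.35e-09) and Rnd1 at 0.541, 0.927 and 1.21 CPM in T0 and at 4.22, 8.77, 9.33 and 4.05 CPM in T3 (log2 change 2.86 ± 0.33 SE, adjusted p = 3.24e-07). Groups did not overlap in any of them, which their choice by small p makes likely. Arhgef2, an exchange factor held on microtubules, fell from 455 to 586 CPM in T0 to 98.0 to 133 CPM in T3 (log2 change -2.11 ± 0.21 SE). Rhobtb1 went from 52.8 to 70.1 CPM in T0 to 14.4 to 18.9 CPM in T3 (log2 change -1.90 ± 0.19 SE). With upper-quartile scaling 30 of the 44 were higher and 6 lower, and without T0 replicate 3 there were 20 and 11.

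Microtubule genes held one of the 10 largest rises. Tuba1c, an alpha-tubulin gene, stood at 1.36, 0.927 and 0.870 CPM in T0 and at 26.0, 41.0, 27.3 and 31.8 CPM in T3 (log2 change 4.92 ± 0.27 SE, adjusted p = 1.87e-11). Tubb6, a beta-tubulin gene, stood at 13.4, 11.5 and 9.51 CPM in T0 and at 147, 174, 157 and 159 CPM in T3 (log2 change 3.79 ± 0.23 SE, adjusted p = 4.65e-11). Of 11 tubulin genes 6 rose and 1 fell, Tubb5 (log2 change -0.76 ± 0.25 SE), and reads of such similar genes may be shared between them. Mapre1, which codes for the plus-end protein EB1, went from 24.1 to 35.3 CPM in T0 to 87.7 to 118 CPM in T3 (log2 change 1.80 ± 0.21 SE). Mapt, the gene of tau, fell from 93.8 to 186 CPM in T0 to 30.4 to 39.7 CPM in T3 (log2 change -1.92 ± 0.22 SE), whereas its relative Map2 rose from 512 to 640.0 CPM in T0 to 867 to 1239 CPM in T3 (log2 change 0.83 ± 0.22 SE). Tubg1, the gamma-tubulin that seeds microtubules at centrosomes and basal bodies, fell from 6.32 to 9.89 CPM in T0 to 1.36 to 2.87 CPM in T3 (log2 change -2.07 ± 0.25 SE). Over the list of 35, 12 rose and 5 fell, with 11 and 7 without T0 replicate 3 and 17 and 4 with upper-quartile scaling.

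Of 59 genes of protein entry into the endoplasmic reticulum and of vesicle coats, 20 were higher (33.9%), 6 lower (10.2%) and 33 not called, with a median log2 change of 0.34. With upper-quartile scaling 41 were higher and 5 lower (median 0.67), and without T0 replicate 3 there were 19 and 9 (median 0.12). All 5 Arf GTPases, the switches that recruit coats, rose: Arf6 went from 14.8 to 19.6 CPM in T0 to 32.1 to 51.7 CPM in T3 (log2 change 1.21 ± 0.21 SE). Arf1 went from 34.8 to 59.5 CPM in T0 to 98.1 to 127 CPM in T3 (log2 change 1.21 ± 0.22 SE). Of 6 genes of the Sec61 channel and its partners, 4 rose and 0 fell. Kdelr2, a receptor that returns proteins to the reticulum, went from 19.7 to 37.7 CPM in T0 to 51.1 to 68.3 CPM in T3 (log2 change 1.04 ± 0.22 SE). Of 9 genes of the COPI coat itself 0 rose, 2 fell and 7 were not called. Copz2, an alternative zeta subunit gene, fell from 10.3 to 15.0 CPM in T0 to 3.23 to 4.30 CPM in T3 (log2 change -1.79 ± 0.21 SE). The trafficking gene Sec22a went from 28.0 to 45.5 CPM in T0 to 10.4 to 14.2 CPM in T3 (log2 change -1.66 ± 0.21 SE).

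Rab GTPases, which mark membrane compartments, were called in both directions, 14 of 69 higher and 17 lower, 26 and 16 with upper-quartile scaling and 19 and 21 without T0 replicate 3. Rab31 stood at 25.3, 27.3 and 27.2 CPM in T0 and at 158, 194, 138 and 169 CPM in T3 (log2 change 2.63 ± 0.22 SE, adjusted p = 3.34e-09). Rab20 stood at 1.95, 1.99 and 2.18 CPM in T0 and at 11.1, 10.8, 10.5 and 12.1 CPM in T3 (log2 change 2.45 ± 0.21 SE, adjusted p = 6.73e-09). In both, every T3 library was more than 4-fold above every T0 library. Rab30, a Golgi Rab, fell from 40.5 to 47.7 CPM in T0 to 8.08 to 10.4 CPM in T3 (log2 change -2.20 ± 0.19 SE). Rab11fip2, an effector of recycling endosomes, went from 38.6 to 60.2 CPM in T0 to 9.90 to 14.2 CPM in T3 (log2 change -2.02 ± 0.21 SE).

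Polyamines are small cations made from ornithine that growing cells need, and spermidine also supplies hypusine, the modified residue of the translation factor eIF5A. Of 23 genes tested, 10 rose (43.5%) and 7 fell (30.4%). Without T0 replicate 3 there were 10 and 8, and 14 and 7 with upper-quartile scaling. Odc1, the first and rate-limiting enzyme of synthesis (chr12:17544794-17551505), stood at 18.6, 18.8 and 10.3 CPM in T0 and at 105, 135, 99.4 and 165 CPM in T3 (log2 change 2.99 ± 0.26 SE, adjusted p = 8.58e-09). Azin1, which frees that enzyme from its inhibitor antizyme, stood at 29.0, 27.1 and 18.3 CPM in T0 and at 124, 165, 154 and 163 CPM in T3 (log2 change 2.61 ± 0.23 SE, adjusted p = 8.28e-09). The spermine synthase gene Sms stood at 40.7, 40.0 and 30.0 CPM in T0 and at 157, 161, 142 and 209.6 CPM in T3 (log2 change 2.18 ± 0.22 SE, adjusted p = 5.02e-08). All 3 were at least 3-fold higher in each T3 library than in the highest T0 library. Amd1 (log2 change 1.70 ± 0.22 SE) and the spermidine synthase gene Srm (log2 change 1.10 ± 0.24 SE) rose as well, and so did the catabolic gene Sat1 (log2 change 2.25 ± 0.25 SE) and Eif5a (log2 change 1.88 ± 0.24 SE). Several paralogs went opposite ways, pairs singled out after their values were seen. Azin2 fell from 9.24 to 15.9 CPM in T0 to 3.58 to 4.24 CPM in T3 (log2 change -1.69 ± 0.21 SE). Eif5a2 went from 5.22 to 7.66 CPM in T0 to 2.59 to 3.04 CPM in T3 (log2 change -1.09 ± 0.21 SE). Sat2 went from 2.50 to 5.13 CPM in T0 to 0.678 to 0.818 CPM in T3 (log2 change -2.21 ± 0.28 SE). The methionine salvage genes Adi1 (log2 change -2.09 ± 0.25 SE) and Mri1 (log2 change -1.75 ± 0.28 SE) fell.

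Nucleotide synthesis had 15 of 39 genes higher and 10 lower, but 15 higher and 18 lower without T0 replicate 3. With upper-quartile scaling there were 18 and 7. Ctps, which makes CTP, stood at 26.4, 27.6 and 19.2 CPM in T0 and at 126, 113, 97.7 and 130.4 CPM in T3 (log2 change 2.26 ± 0.22 SE, adjusted p = 2.55e-08). Umps, which makes UMP, went from 5.75 to 10.4 CPM in T0 to 29.2 to 37.9 CPM in T3 (log2 change 1.96 ± 0.23 SE). The salvage kinase gene Uck2, which lies over another gene, rose by 3.38 on the log2 scale. Of purine genes, Impdh1, the first step towards GTP, went from 7.97 to 14.4 CPM in T0 to 37.8 to 41.8 CPM in T3 (log2 change 1.81 ± 0.22 SE). Adss, towards AMP, went from 24.2 to 51.3 CPM in T0 to 131 to 194 CPM in T3 (log2 change 1.98 ± 0.25 SE). Tyms, which makes thymidylate, fell from 6.77 to 8.40 CPM in T0 to 2.24 to 2.47 CPM in T3 (log2 change -1.69 ± 0.20 SE). Dhodh, the mitochondrial step of pyrimidine synthesis, fell from 6.14 to 10.8 CPM in T0 to 1.97 to 2.87 CPM in T3 (log2 change -1.84 ± 0.23 SE). In serine and one-carbon metabolism, 6 of 28 rose and 8 fell (10 and 7 with upper-quartile scaling, 6 and 13 without T0 replicate 3). Psat1, of serine synthesis, rose from 9.17 to 9.76 CPM in T0 to 24.3 to 32.8 CPM in T3 (log2 change 1.64 ± 0.20 SE).

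Of 5 genes of RNA polymerase I, which makes ribosomal RNA, 4 rose and 0 fell, with Polr1d, a subunit shared with polymerase III, at 35.2, 29.0 and 16.9 CPM in T0 and at 82.6, 72.6, 70.1 and 92.3 CPM in T3 (log2 change 1.56 ± 0.24 SE, adjusted p = 1.04e-05). Polymerase II had 3 of 12 higher and 4 lower, and polymerase III 3 of 10 higher and 3 lower. Polr3e rose from 23.8 to 42.0 CPM in T0 to 80.6 to 90.4 CPM in T3 (log2 change 1.32 ± 0.21 SE). By contrast, Polr3k fell from 3.80 to 6.21 CPM in T0 to 1.31 to 1.80 CPM in T3 (log2 change -1.73 ± 0.23 SE). Over all 47 genes with their factors 17 rose and 13 fell, with 16 and 18 without T0 replicate 3 and 26 and 9 with upper-quartile scaling.

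Of 80 developmental transcription factors tested, 24 were lower (30.0%) and 13 higher, and 22 and 16 with upper-quartile scaling. Of the 63 expressed members 38.1% were lower and 15.9% higher, beside the background of 33.2% and 21.5%. The whole nuclear factor I family fell. Nfia (chr4:97772734-98118874) stood at 2340.1, 1941 and 1694 CPM in T0 and at 343, 315, 380.1 and 404 CPM in T3 (log2 change -2.47 ± 0.22 SE, adjusted p = 8.32e-09). Nfib went from 973 to 1284 CPM in T0 to 225 to 273 CPM in T3 (log2 change -2.18 ± 0.21 SE). Nfic went from 136 to 206 CPM in T0 to 33.5 to 49.0 CPM in T3 (log2 change -2.04 ± 0.21 SE). Nfix, a factor of the fetal muscle programme, went from 515 to 785 CPM in T0 to 202 to 275 CPM in T3 (log2 change -1.36 ± 0.21 SE). No T3 library of these 4 genes reached a T0 library, beside 12242 of all 31999 genes tested whose libraries did not overlap. Pitx3 fell from 16.1 to 23.9 CPM in T0 to 3.38 to 5.21 CPM in T3 (log2 change -2.29 ± 0.22 SE). Sox8, which lies over another gene, fell by 2.73 on the log2 scale, while Sox9, a factor of cartilage and many progenitors, rose. It stood at 8.96, 4.29 and 5.78 CPM in T0 and at 29.5, 56.9, 37.5 and 38.4 CPM in T3 (log2 change 2.68 ± 0.27 SE, adjusted p = 5.29e-08). Sox11 rose too (log2 change 1.95 ± 0.21 SE). Runx1 (chr16:92601466-92826149), known to rise in injured muscle, had the largest rise of the list, at 409.6, 421 and 185 CPM in T0 and at 3429, 4093, 2967 and 3903 CPM in T3 (log2 change 3.41 ± 0.30 SE, adjusted p = 7.65e-09), with T0 replicate 3 well below the other T0 libraries. Meis1 (log2 change -1.68 ± 0.20 SE) and Lbx1 (log2 change -1.50 ± 0.22 SE), factors of limb and muscle precursors, fell. Without T0 replicate 3, 22 of the 80 were higher and 29 lower.

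Nuclear receptors, which read steroid, retinoid and lipid ligands, had 16 of 42 genes lower and 3 higher, but 13 lower and 11 higher with upper-quartile scaling, and 20 lower and 6 higher without T0 replicate 3. Steroid receptor genes were among those that fell. Esr1, the oestrogen receptor alpha, stood at 834, 786 and 492 CPM in T0 and at 214, 237, 287 and 289.6 CPM in T3 (log2 change -1.46 ± 0.22 SE, adjusted p = 1.32e-05). Nr3c2, the mineralocorticoid receptor, stood at 932, 781 and 541 CPM in T0 and at 222, 293, 224 and 248 CPM in T3 (log2 change -1.61 ± 0.22 SE, adjusted p = 2.98e-06). Of 6 retinoid receptor genes 4 fell and 0 rose, led by Rarb, which lies over another gene (log2 change -2.03 ± 0.21 SE). The coactivator genes Ncoa1 (615 to 881 CPM in T0 to 202 to 239.8 CPM in T3; log2 change -1.72 ± 0.20 SE) and Ppargc1b (45.0 to 68.6 CPM in T0 to 14.7 to 16.2 CPM in T3; log2 change -1.92 ± 0.20 SE) fell. Pparg, the adipogenic receptor, rose from 8.46 to 13.1 CPM in T0 to 23.1 to 35.0 CPM in T3 (log2 change 1.45 ± 0.22 SE).

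Genes of cyclic AMP signalling had 16 of 49 lower (32.7%) and 8 higher (16.3%), close to the background, and 15 lower and 13 higher with upper-quartile scaling. Besides Pde7b, the phosphodiesterase gene Pde1c fell from 548 to 778 CPM in T0 to 129 to 208 CPM in T3 (log2 change -1.86 ± 0.22 SE). By contrast, Pde4c rose from 0.844 to 2.02 CPM in T0 to 7.95 to 11.6 CPM in T3 (log2 change 2.75 ± 0.27 SE). Over 14 phosphodiesterases 5 fell and 2 rose. Of 9 adenylyl cyclases, which make cyclic AMP, 4 fell and 1 rose. Adcy9 stood at 139, 122 and 73.0 CPM in T0 and at 24.3, 27.3, 30.3 and 28.2 CPM in T3 (log2 change -2.02 ± 0.22 SE, adjusted p = 1.11e-07). Adcy7 fell from 128 to 175 CPM in T0 to 38.7 to 56.2 CPM in T3 (log2 change -1.70 ± 0.21 SE). Akap13, an anchor of protein kinase A and also an exchange factor of small GTPases, rose from 306 to 420.0 CPM in T0 to 1235 to 1795 CPM in T3 (log2 change 2.04 ± 0.23 SE). Without T0 replicate 3 there were 22 falls and 15 rises.

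Calcium handling changed gene by gene: 14 of 54 fell and 9 rose, and 18 fell and 21 rose without T0 replicate 3. Atp2b1, a calcium pump of the plasma membrane, stood at 145, 130.3 and 97.0 CPM in T0 and at 1086, 1167, 831 and 1186 CPM in T3 (log2 change 3.10 ± 0.25 SE, adjusted p = 2.32e-09). Atp2a2, a pump of the reticulum, stood at 146, 147 and 90.1 CPM in T0 and at 393, 463, 352 and 477 CPM in T3 (log2 change 1.72 ± 0.23 SE, adjusted p = 2.32e-06). Both pumps were higher in every T3 library than in any T0 library, which their choice by small p makes likely. Calm3, a calmodulin gene, fell from 39.2 to 61.9 CPM in T0 to 11.0 to 15.9 CPM in T3 (log2 change -1.85 ± 0.21 SE), whereas its paralog Calm2 rose (log2 change 1.26 ± 0.20 SE). Ryr1, the release channel of the muscle fibre reticulum, fell from 52.2 to 113 CPM in T0 to 24.6 to 36.5 CPM in T3 (log2 change -1.53 ± 0.24 SE), while the summed myofibre markers were higher in T3. Micu2, a gatekeeper of the mitochondrial uniporter, fell from 84.1 to 145 CPM in T0 to 26.4 to 33.5 CPM in T3 (log2 change -1.97 ± 0.21 SE). Orai2, a store-operated channel, went from 21.8 to 23.5 CPM in T0 to 5.86 to 9.65 CPM in T3 (log2 change -1.56 ± 0.20 SE).

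In PI3K, mTOR and insulin signalling, 14 of 47 rose and 14 fell, with no firm balance: 22 rose and 12 fell with upper-quartile scaling, and 14 rose and 20 fell without T0 replicate 3. Irs1, the adaptor of insulin and IGF1 receptors, stood at 257, 186 and 343 CPM in T0 and at 38.1, 37.6, 61.9 and 37.5 CPM in T3 (log2 change -2.58 ± 0.24 SE, adjusted p = 1.63e-08). Rragb, a Rag GTPase that tells mTORC1 of amino acids, fell from 11.7 to 21.2 CPM in T0 to 2.84 to 3.42 CPM in T3 (log2 change -2.48 ± 0.22 SE). Eif4ebp1, the translation inhibitor that mTORC1 phosphorylates, rose from 16.4 to 33.6 CPM in T0 to 109 to 158 CPM in T3 (log2 change 2.23 ± 0.25 SE). Akt1 (log2 change 0.87 ± 0.21 SE) and Akt2 (log2 change 0.99 ± 0.23 SE) rose by less than 2-fold.

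At cell contacts, 13 of 39 cadherin and junction genes rose and 10 fell, with 20 and 12 without T0 replicate 3 and 17 and 7 with upper-quartile scaling. Gja1, which codes for the gap junction protein connexin 43, stood at 4.00, 6.61 and 4.75 CPM in T0 and at 24.6, 38.1, 25.1 and 25.8 CPM in T3 (log2 change 2.47 ± 0.24 SE, adjusted p = 3.01e-08). Gjc1, another connexin gene, went from 12.0 to 16.0 CPM in T0 to 54.1 to 65.9 CPM in T3 (log2 change 2.00 ± 0.21 SE). Groups did not overlap in either gene, which their choice by small p makes likely. Endothelial cells also use such junctions, and their markers summed higher in T3 as given above, which was not tested further. Of 48 synaptic organiser and neural adhesion genes 8 fell and 5 rose, a balance that did not hold: 26 rose and 8 fell without T0 replicate 3, 6 rose and 5 fell without T0 replicate 1, and 7 rose and 5 fell with upper-quartile scaling. Tenm4, a teneurin, fell from 1219.9 to 1787 CPM in T0 to 652 to 778 CPM in T3 (log2 change -1.11 ± 0.21 SE). Kirrel3, of the family that guides myoblast fusion in flies, went from 587 to 626 CPM in T0 to 221 to 373 CPM in T3 (log2 change -1.02 ± 0.21 SE). Musk, the kinase of the neuromuscular junction, rose from 133 to 218 CPM in T0 to 266 to 401 CPM in T3 (log2 change 0.85 ± 0.23 SE).

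Potassium channels had 14 of 93 genes higher and 10 lower, and 35 higher and 13 lower without T0 replicate 3. Of the 60 expressed members 20.0% were higher, close to the background of 21.5%, and 13.3% lower, below the 33.2%. Kcnn3, a calcium-activated channel, stood at 399.6, 249.8 and 239 CPM in T0 and at 89.0, 57.5, 88.4 and 88.7 CPM in T3 (log2 change -1.87 ± 0.23 SE, adjusted p = 6.46e-07). Kcnk5, a background channel, rose from 7.20 to 14.5 CPM in T0 to 16.5 to 36.4 CPM in T3 (log2 change 1.27 ± 0.26 SE). Adhesion G protein-coupled receptors had 4 of 27 higher and 2 lower (14 and 4 without T0 replicate 3). Adgrg1 rose from 3.83 to 6.82 CPM in T0 to 14.9 to 18.8 CPM in T3 (log2 change 1.66 ± 0.22 SE). Adgrg3 went from 0.995 to 2.52 CPM in T0 to 6.30 to 7.48 CPM in T3 (log2 change 1.98 ± 0.26 SE).

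Of 117 metalloproteases, inhibitors of the TIMP family and serpins, 18 rose and 11 fell, with 28 and 14 without T0 replicate 3. Serpine2, a thrombin inhibitor, stood at 4.28, 5.91 and 6.57 CPM in T0 and at 46.6, 39.0, 25.6 and 50.3 CPM in T3 (log2 change 2.85 ± 0.25 SE, adjusted p = 9.98e-09). Serpini1, or neuroserpin, fell from 128 to 327 CPM in T0 to 59.1 to 98.8 CPM in T3 (log2 change -1.75 ± 0.26 SE). Adam12, a metalloprotease of fusing and activated muscle cells, had an adjusted p of 0.0109 and lost its call without T0 replicate 1 (0.0512) or T3 replicate 2 (0.0824). In heparan and chondroitin sulfate synthesis 11 of 55 rose and 14 fell (16 and 11 with upper-quartile scaling, 14 and 19 without T0 replicate 3). Here too paralogs parted, again singled out after their values were seen. Xylt1, which starts the glycan chains, rose from 21.4 to 29.6 CPM in T0 to 63.7 to 74.4 CPM in T3 (log2 change 1.46 ± 0.20 SE). Xylt2, which catalyses the same step, fell from 13.5 to 23.4 CPM in T0 to 6.69 to 8.48 CPM in T3 (log2 change -1.34 ± 0.21 SE). Chst12, a chondroitin sulfotransferase, stood at 13.6, 12.9 and 10.8 CPM in T0 and at 2.14, 2.01, 2.19 and 1.69 CPM in T3 (log2 change -2.62 ± 0.21 SE, adjusted p = 2.32e-09).

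Solute carriers, the largest list, had 76 of 370 higher and 89 lower, and the balance was the other way with upper-quartile scaling (106 and 67) and without T0 replicate 3 (128 and 103). Slc7a1, a transporter of arginine, lysine and ornithine, stood at 31.6, 35.9 and 19.0 CPM in T0 and at 414, 309, 283 and 435 CPM in T3 (log2 change 3.64 ± 0.27 SE, adjusted p = 9.67e-10). Slc7a2, its relative for the same amino acids, stood at 101, 89.8 and 84.8 CPM in T0 and at 22.2, 18.5, 21.0 and 22.3 CPM in T3 (log2 change -2.13 ± 0.19 SE, adjusted p = 9.20e-09). The former was higher and the latter lower in every T3 library than in any T0 library, and the pair was singled out after its values were seen. Slc22a4, an ergothioneine and carnitine transporter, rose from 6.28 to 8.40 CPM in T0 to 67.0 to 160.3 CPM in T3 (log2 change 3.82 ± 0.29 SE), the neutral amino acid transporter gene Slc38a2 by 2.29 on the log2 scale and the lactate and pyruvate transporter gene Slc16a1 by 1.87. Of 14 genes of that monocarboxylate family 7 rose and 2 fell. Of 47 mitochondrial carrier genes 18 were lower (38.3%) and 6 higher (12.8%), beside 33.2% and 21.5% of expressed genes. Slc25a27, an uncoupling protein relative, fell from 59.2 to 102 CPM in T0 to 9.95 to 12.4 CPM in T3 (log2 change -2.92 ± 0.22 SE), while the pyrimidine nucleotide carrier gene Slc25a33 (log2 change 2.58 ± 0.24 SE) and the ADP/ATP carrier gene Slc25a5 (log2 change 2.23 ± 0.21 SE) rose. The proton-coupled folate transporter gene Slc46a1 fell from 3.81 to 7.64 CPM in T0 to 0.818 to 1.18 CPM in T3 (log2 change -2.50 ± 0.26 SE).

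Mitochondrial ribosome genes had 34 of 78 lower (43.6%) and 7 higher, with 29 lower and 17 higher under upper-quartile scaling, 31 and 12 without T0 replicate 1, and 48 and 6 without T0 replicate 3. Of the 76 expressed members 42.1% were lower, against 35.2% of protein-coding genes at a log2 CPM of 1 to 3 and 40.4% at 3 to 5. The median log2 CPM of the list was 2.85. Mrps15 stood at 15.7, 12.3 and 10.5 CPM in T0 and at 2.60, 3.95, 3.25 and 3.92 CPM in T3 (log2 change -1.90 ± 0.22 SE, adjusted p = 2.91e-07). Mrpl20 rose from 4.92 to 10.2 CPM in T0 to 13.5 to 22.0 CPM in T3 (log2 change 1.27 ± 0.24 SE). In mitochondrial protein import 9 of 25 rose and 7 fell, the same counts as without T0 replicate 3. Timm17a and Timm17b code for alternative forms of one channel subunit. Timm17a rose from 13.8 to 22.0 CPM in T0 to 26.6 to 40.9 CPM in T3 (log2 change 0.88 ± 0.22 SE) and Timm17b fell from 3.93 to 7.08 CPM in T0 to 1.89 to 2.43 CPM in T3 (log2 change -1.35 ± 0.23 SE), a pair singled out after its values were seen.

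The nuclear envelope list had 6 of 25 higher and 4 lower (6 and 8 without T0 replicate 3). Lmna, which codes for lamins A and C, proteins that stiffen the nucleus under tension, stood at 143, 132 and 101 CPM in T0 and at 632, 844, 973 and 754 CPM in T3 (log2 change 2.68 ± 0.24 SE, adjusted p = 9.98e-09). Every T3 library was at least 4-fold above every T0 library. Tmpo, of the inner nuclear membrane, fell from 59.1 to 86.3 CPM in T0 to 30.8 to 36.9 CPM in T3 (log2 change -1.14 ± 0.19 SE). Deubiquitinases had 22 of 64 higher and 16 lower, 25 and 22 without T0 replicate 3 and 31 and 13 with upper-quartile scaling. Usp36, of the nucleolus, rose from 45.4 to 89.7 CPM in T0 to 200.5 to 233 CPM in T3 (log2 change 1.57 ± 0.23 SE) and Usp11 fell from 21.2 to 50.8 CPM in T0 to 9.39 to 13.3 CPM in T3 (log2 change -1.69 ± 0.24 SE). Usp2 fell on average (log2 change -1.87 ± 0.32 SE), but its T0 replicate 3, at 27.0 CPM, lay inside the T3 range. Among mRNA 3′ processing and m6A genes 10 of 37 rose and 4 fell (8 and 10 without T0 replicate 3). The m6A reader gene Ythdf2 rose from 29.2 to 53.3 CPM in T0 to 116 to 149.6 CPM in T3 (log2 change 1.62 ± 0.23 SE), whereas the m6A demethylase gene Fto fell from 385 to 653 CPM in T0 to 172 to 223 CPM in T3 (log2 change -1.41 ± 0.22 SE). The writer subunit gene Mettl14 went from 13.9 to 20.6 CPM in T0 to 7.97 to 10.1 CPM in T3 (log2 change -1.06 ± 0.20 SE).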

How the data were processed

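RNA was extracted from fixed, sorted cells with a kit for formalin-fixed tissue and made into directional total RNA libraries, sequenced as 65-bp single-end reads, per the labels' protocols. The authors deposited raw read counts for each gene in 1 table, and they were used as they stand. Per the submitters' processing notes, the build was GRCm38 and the tools were DESeq2 1.12.3, R 3.3.1, featureCounts 1.4.6-p3 and STAR 2.5.0a. The annotation release and the strand setting are not given in the sources used here. Tsix and Xist, which overlap on opposite strands, had nearly equal counts (ratio 1.004 to 1.014), so reads of both strands are counted. A gene that shares its place with another gene of more than 0.1 times its count is said to lie over another gene. Gene IDs were matched to GENCODE vM21 (48349 of 48709), and coordinates are of GRCm38. The 37 mitochondrial genes are at 0 in every library and were not analysed.

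Columns were assigned to groups by name, and replicates are named by column number. Counts were tested with edgeR 4.0.16 in R 4.3.3 (TMM scaling, filterByExpr, quasi-likelihood F test, two-sided). All groups entered 1 fit, with the 4 T5 libraries summed to 2 by the letter in their titles, so that n = 3, 4 and 2. The labels give T5 cells an incubation of 2 h at 37 °C and fixation in 0.5% paraformaldehyde for 30 min. The SE is the log2 change divided by the root of F. The procedure was tested on simulated data. The members and lists were chosen with earlier results of these data known.

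Named genes are the 10 highest and 10 lowest log2 changes of called genes averaging a log2 CPM of 4 or more, with libraries that do not overlap, no overlapping gene and no place in 4 lists of known genes. From each function list come up to 4 called members with the smallest p in the leading direction and up to 2 in the other, averaging a log2 CPM of 1 or more and without an overlapping gene. Some genes that these rules name are not reported here. Other members were singled out by their role or after their values were seen. Alternatives were DESeq2 size factors, upper-quartile scaling, no filter, the DESeq2 1.42.0 Wald test, T0 and T3 alone, a replicate block and leaving out each library. Members averaging a log2 CPM of 1 or more and promoters of expressed genes without overlap were alternatives chosen after seeing the data. Counting depth limits genes of few CPM most. Figures were drawn with matplotlib 3.10.9.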

Additional observations from a re-analysis of the deposited data

Results flagged for a closer look

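In 12 of 186 named genes, 1 of the 4 T3 libraries lay far from the other 3 by Dixon's gap criterion, where chance flags about 1 group in 20. None of these libraries reached the T0 range in the gene concerned. Ift81 was at 8.74 CPM in T3 replicate 2 against 9.74 to 9.90 CPM in the other T3 libraries. Gja1 was at 38.1 CPM in T3 replicate 2 against 24.6 to 25.8 CPM in the other T3 libraries. Kcnn3 was at 57.5 CPM in T3 replicate 2 against 88.4 to 89.0 CPM in the other T3 libraries. Adcy7 was at 56.2 CPM in T3 replicate 3 against 38.7 to 41.6 CPM in the other T3 libraries. Adgrf4 was at 3.64 CPM in T3 replicate 3 against 3.16 to 3.23 CPM in the other T3 libraries. Irs1 was at 61.9 CPM in T3 replicate 3 against 37.5 to 38.1 CPM in the other T3 libraries. Sat1 was at 54.3 CPM in T3 replicate 2 against 29.0 to 31.96 CPM in the other T3 libraries. Ggh was at 5.20 CPM in T3 replicate 3 against 5.53 to 5.56 CPM in the other T3 libraries. Gtf3c3 was at 5.15 CPM in T3 replicate 3 against 7.02 to 7.36 CPM in the other T3 libraries. Syne3 was at 39.9 CPM in T3 replicate 3 against 24.9 to 26.3 CPM in the other T3 libraries. Mettl14 was at 10.1 CPM in T3 replicate 2 against 7.97 to 8.25 CPM in the other T3 libraries. Slc38a6 was at 9.57 CPM in T3 replicate 2 against 12.5 to 13.0 CPM in the other T3 libraries.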

How the results depend on the processing

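Of 186 named genes, 184 were called in the same direction under all 13 alternatives, and no direction reversed. The exceptions are Cnn2 with upper-quartile scaling and Adam12 without T0 replicate 1 or T3 replicate 2. Named genes were picked for small p or large changes in the main fit. Most were therefore likely to stay called, and the count does not speak for other genes. Genes higher ranged from 4605 to 7159 over the alternatives that keep every library and from 4132 to 7080 when 1 library was left out, and genes lower from 5798 to 7435 and from 6406 to 8875. Of 435 shares of list members recomputed, 16 moved by more than 1.5 times, and the cause was not tested. Upper-quartile scaling raised the share of higher members to 68.2% for regulators of RhoA and Rac, 29.6% for adhesion receptors, 46.8% for PI3K and mTOR, 55.3% for RNA polymerases, 64.0% for mitochondrial import, 69.5% for translocon and coats, 40.0% for the nuclear envelope and 51.4% for 3′ processing, and took lower synaptic organisers to 10.4%. With 1 library left out, the share ranged from 28.2 to 51.3% for cadherins and junctions (higher), 10.4 to 16.7% for synaptic organisers (lower), 11.8 to 37.6% for potassium channels, 14.8 to 51.9% for adhesion receptors, 25.0 to 46.4% for one-carbon genes (lower) and 10.3 to 24.4% for metalloproteases and serpins. Of metalloproteases and serpins averaging a log2 CPM of 1 or more, 23.4% were higher. The labels do not say whether replicate numbers pair the samples. Deviations of same-numbered T0 and T3 libraries correlated at -0.206, 0.459 and 0.359, and those of differently numbered ones at -0.522 to 0.547. So few libraries cannot decide whether a pairing exists. With the replicate block 4900 genes were higher and 7036 lower, and all 186 named genes stayed called.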

Other observations

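Of 569 loci annotated as microRNA genes and tested, 132 (23.2%) were higher in T3 and 74 (13.0%) lower, beside 15.0% and 22.9% of all genes tested. Only 25 of the called loci have no overlapping gene of more than 0.1 times their count, 17 higher and 8 lower. The number of such loci tested is not given here, so these calls have no share to set beside the background. Reads over such a locus do not measure the mature microRNA. The 6 loci among them that averaged a log2 CPM of 0 or more are given, a choice made after their values were seen. Mir221 had 1, 0 and 0 counts in T0 and 67, 174, 119 and 73 counts in T3, and its neighbour Mir222, on the same strand of chromosome X, had 4, 1 and 6 counts in T0 and 184, 609, 346 and 195 counts in T3. Neither locus had more than 6 counts in any T0 library. Mir29a had 10, 18 and 6 counts in T0 and 368, 497, 286 and 363 counts in T3 (log2 change 5.06 ± 0.36 SE, adjusted p = 4.87e-10 by edgeR). Mir23a, of a cluster with Mir27a, had 23, 24 and 5 counts in T0 and 113, 116, 133 and 121 counts in T3 (log2 change 2.75 ± 0.40 SE, adjusted p = 6.96e-06), and Mir27a had 16, 54 and 43 counts in T0 and 73, 136, 179 and 96 counts in T3 (log2 change 1.72 ± 0.32 SE, adjusted p = 0.00014). Mir195a went the other way, with 116, 109 and 90 counts in T0 and 43, 81, 74 and 59 counts in T3 (log2 change -0.75 ± 0.28 SE, adjusted p = 0.0398). The mature 3p sequences from RefSeq (GRCm38.p6) of the 3 loci with the largest rises are given with the seed, bases 2 to 8, in capitals, because Mir221 and Mir222 share theirs.
miR-221-3p: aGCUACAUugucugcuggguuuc
miR-222-3p: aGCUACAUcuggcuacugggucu
miR-29a-3p: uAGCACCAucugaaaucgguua
These lie at chrX:19146307-19146329, chrX:19146901-19146923 and chr6:31062673-31062694, all on the - strand.

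Genes annotated as long intergenic noncoding RNA were called less often than all genes tested. Of 2866 such genes 6.63% were higher and 11.7% lower, beside 15.0% and 22.9%, and their median log2 CPM was -0.24. Some long noncoding RNA genes without an overlapping gene moved, and those named here were chosen after their values were seen. Neat1, the scaffold of nuclear paraspeckles, stood at 775, 759 and 381 CPM in T0 and at 2163, 3557, 2601 and 2749 CPM in T3 (log2 change 2.12 ± 0.28 SE). Pvt1, the neighbour of the Myc gene, stood at 533.5, 600.5 and 309.5 CPM in T0 and at 2164, 1968, 2029.5 and 2267 CPM in T3 (log2 change 2.13 ± 0.25 SE). Mir17hg, host of a microRNA cluster, rose by 2.71 on the log2 scale, and Dubr, known from myoblast differentiation, fell by 2.37. Groups did not overlap in these 4 genes, which the choice by their values makes likely, beside 12242 of all 31999 genes tested. Among promoters of expressed genes without overlap, a TATA box (TATAAA) stood in 9.75% of those higher by at least 2-fold, 5.23% of those lower by at least 2-fold and 7.29% of all, and an AP-1 site (TGANTCA) in 6.50%, 4.05% and 5.04%.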
